A study of Mus musculus with 9 samples.

Results

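Bile duct markers were followed across 3 kinds of mouse liver sample on 9 Illumina bead arrays, with 3 arrays for each kind. The markers were 7 genes (Sox9, Krt19, Krt7, Krt23, Epcam, Cldn7 and Spp1), and every array probe filed under one of these symbols was taken, whatever its value. This gave 7 probes of 6 genes among 45281 probes in all. No probe was filed under Epcam, and the probe filed under its older symbol, Tacstd1, was added because its RefSeq accession is that of Epcam. The samples were liver tissue fixed on glass. PV was laser-captured from the perivenous cells, the glutamine synthetase compartment beside the central vein, NPV was laser-captured from zones 1+2 of the acinus, and SC was all tissue scraped from the slide. Strain, sex, age, any treatment of the animals and how captured cells were recognised are not stated in these sources. Nothing in the labels ties the samples to animals, so the p-values cover no more than the spread among these samples, and that spread may be technical. Each group carried the label numbers 1, 2 and 3.

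Bile ducts run in the portal tracts, beside the portal vein and hepatic artery, at the far end of the acinus from the central vein. Their lining cells, the cholangiocytes, descend from the same embryonic progenitor as hepatocytes and keep a simple epithelial programme of keratins, adhesion molecules and tight junctions. Some of the genes used as duct markers are also active outside the duct: Sox9 is found at a lower level in hepatocytes next to the portal tract, and Spp1 is also made by macrophages. In tissue pieces of this kind, fewer cells of a type and less RNA per cell cannot be told apart.

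The classical duct markers were not detected in any region. Krt19 and Krt7, the keratin pair of the bile duct epithelium, and Epcam, its surface adhesion molecule, were detected (deposited detection p under 0.05) on 0 of 9 arrays. Sox9, the transcription factor of the bile duct lineage, Krt23, a type I keratin, and Spp1, osteopontin, were detected on all 9 arrays, and Cldn7, a tight junction claudin, on 6. Sox9 and Krt23 were at their lowest mean level in PV and their highest in NPV, with SC between them, but 0 of the 5 member probes past the detection filter passed the test in any comparison. The detection filter (detection p under 0.05 on at least 3 of 9 arrays) kept 19425 of all probes (42.9%), and of the members it kept both Sox9 probes and those of Krt23, Cldn7 and Spp1.

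Between 16819 (37.1%) and 18721 (41.3%) of all probes were detected per array, and the number of arrays limits the precision. Levels are log2 intensities after background correction and quantile normalization, and the lowest level of a detected probe was 5.05 to 5.27 per array. Arrays that shared a label number resembled one another. Across probes, which are not independent replicates, their deviations from the group means correlated at r = 0.569 to 0.874 over the 9 such pairs, against -0.742 to 0.396 for arrays of different group and number. Of the latter, pairs of numbers 1 and 2 were at 0.328 to 0.396, and pairs with a number 3 array at -0.742 to -0.578. Values are therefore given for each number, and with the number as a block where the calls differ. Glul, which encodes glutamine synthetase, was at 12.81 to 13.73 in PV, 10.48 to 11.09 in NPV and 11.44 to 11.70 in SC, so the groups did not overlap in the gene that names the captured compartment.

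**Figure D1:**
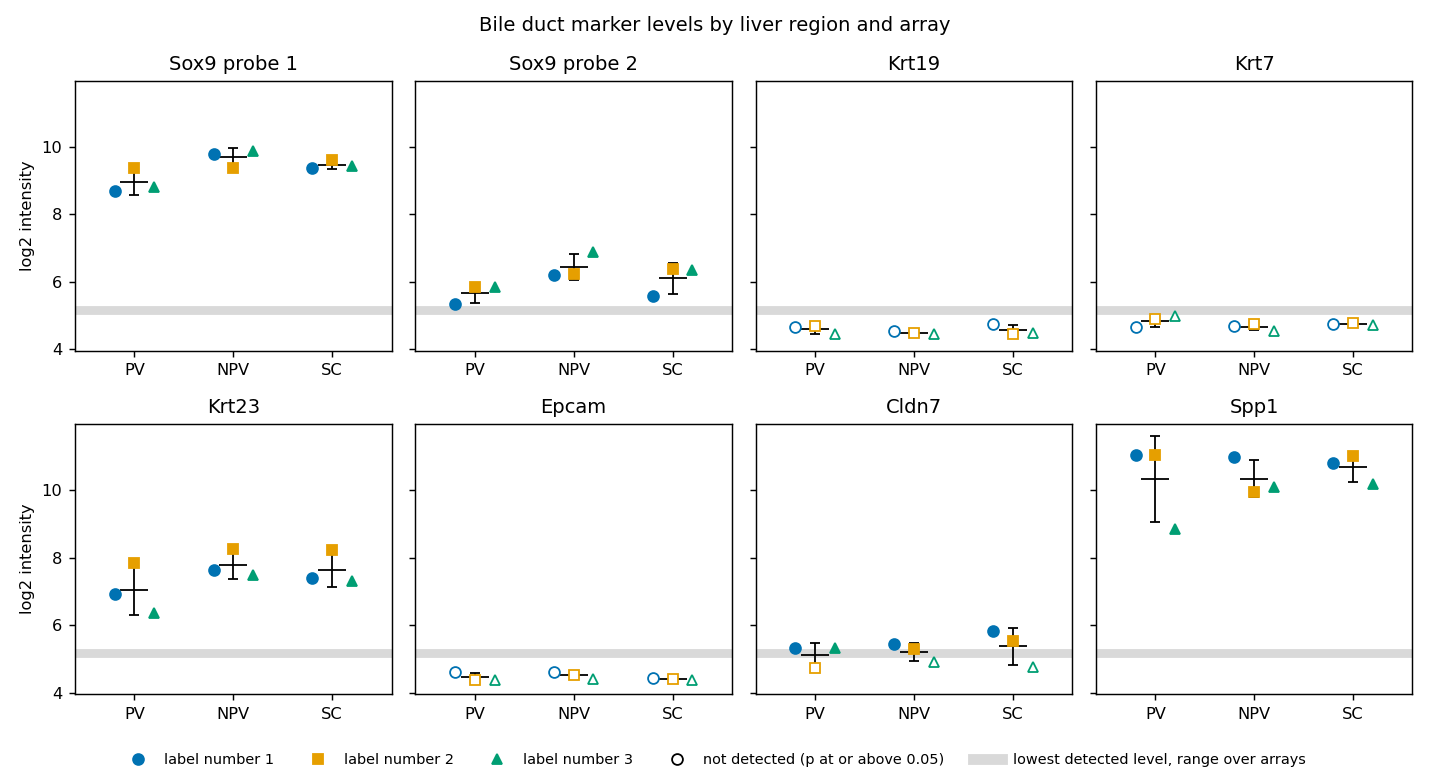
Level (log2 intensity, vertical axis) of each bile duct marker probe on every array, by region. Colours and shapes give the label number, open symbols mark arrays on which the probe was not detected, bars give the mean and SD of 3 arrays, and the grey band spans the lowest detected level per array (5.05 to 5.27). Krt19, Krt7 and Epcam have only open symbols, all below the band.

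The promoters of 5 of the 7 genes were in the RefSeq promoter table of build GRCm38.p6 (250 bases before to 50 after the start). Shown are Krt23 (chr11:99493071-99493370, minus strand), which was lowest in PV beside Sox9, Spp1 (chr5:104434861-104435160, plus strand), which varied without a regional order, and Krt7 (chr15:101412153-101412452, plus strand), which was not detected. Capitals mark ACAAT, the core letters that SOX factors such as Sox9 bind, searched on both strands.
Krt23: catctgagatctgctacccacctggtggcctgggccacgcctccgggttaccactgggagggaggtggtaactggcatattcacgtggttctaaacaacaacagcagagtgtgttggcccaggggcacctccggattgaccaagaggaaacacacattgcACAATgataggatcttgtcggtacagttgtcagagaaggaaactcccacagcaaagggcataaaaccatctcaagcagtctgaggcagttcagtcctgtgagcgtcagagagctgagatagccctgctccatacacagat
Spp1: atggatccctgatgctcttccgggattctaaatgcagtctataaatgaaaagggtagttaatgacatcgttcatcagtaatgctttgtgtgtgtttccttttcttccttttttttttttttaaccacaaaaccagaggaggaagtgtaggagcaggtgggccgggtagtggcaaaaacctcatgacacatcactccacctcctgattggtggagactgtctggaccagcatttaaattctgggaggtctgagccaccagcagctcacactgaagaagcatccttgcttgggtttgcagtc
Krt7: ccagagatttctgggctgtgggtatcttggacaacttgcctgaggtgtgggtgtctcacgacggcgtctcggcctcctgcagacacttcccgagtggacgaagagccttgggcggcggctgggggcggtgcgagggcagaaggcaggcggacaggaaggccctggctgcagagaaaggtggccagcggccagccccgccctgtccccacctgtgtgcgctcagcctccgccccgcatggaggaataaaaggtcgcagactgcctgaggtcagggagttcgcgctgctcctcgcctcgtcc

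Krt23 held ACAAT once, on the plus strand of the sequence as printed, and the other 4 promoters held none. The motif was present in 31% of the 32851 promoters of this length, so the match is a description and no site. TATAAA was found in the Spp1 promoter alone among the 5 (13.6% of all promoters), at position -211 from the start. GTTAAT, the half-site of HNF1 factors, was also in Spp1 alone (7.1%), at -194. GTGGGAA, the motif of the Notch effector RBPJ, was in none of the 5 (6.38%). Only these exact letters were searched, so near matches were not counted. The Krt7 promoter had 66.3% G and C with 21 CpG pairs and the Epcam promoter 57% with 11, while those of Krt23, Cldn7 and Spp1 had 53%, 52% and 45.3% with 6, 7 and 3. The median over all promoters was 52.7% with 7 CpG pairs.

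Sox9 was measured by 2 probes, both detected on all 9 arrays. With the brighter one, probe 1, PV arrays 1, 2 and 3 read 8.68, 9.39 and 8.81, NPV arrays read 9.81, 9.39 and 9.89, and SC arrays read 9.38, 9.61 and 9.43. PV 1 and PV 3 lay below all other arrays, while PV 2 was level with NPV 2, so PV and NPV touched at 1 point. The order of the means was PV (8.96 ± 0.38, SD, n = 3), SC (9.48 ± 0.12) and NPV (9.70 ± 0.27). SC and NPV differed by less than the SD of the NPV arrays. PV differed from NPV by -0.74 (log2, SE 0.23, 95% interval -1.25 to -0.22; limma unadjusted p = 0.0104, adjusted p = 1.00 over all probes), which is 1.66-fold. Within label numbers the difference was -1.12, 0.00069 and -1.08 for numbers 1, 2 and 3. Without PV 2 the difference was -0.95.

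Sox9 probe 2 was dimmer, with intensities of 84.8 to 173 before normalization. PV arrays 1, 2 and 3 read 5.34, 5.84 and 5.84, NPV arrays 6.21, 6.23 and 6.88, and SC arrays 5.59, 6.38 and 6.34. Every PV array lay below every NPV array, and SC overlapped both. PV differed from NPV by -0.77 (SE 0.29, 95% interval -1.42 to -0.12), in 3 of 3 numbers (-0.87, -0.39 and -1.04). An exact 2-sided permutation test gave p = 0.1, below which 3 against 3 arrays cannot go, and p = 0.2 for probe 1. The limma adjusted p of probe 2 was 1.00, and 0.168 with the number as a block (0.313 for probe 1). Neither probe passed over all probes. With this processing the differences were close, but with normexp background correction probe 2 was at -0.41 beside -0.67 for probe 1, and with the authors' normalized table at -0.40 beside -0.67.

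Against the scraped tissue, Sox9 in PV was at -0.51 by probe 1 (SE 0.23, limma unadjusted p = 0.0499, adjusted p = 1.00) and at -0.43 by probe 2 (SE 0.29). Both probes were lower in PV in 3 of 3 numbers, by 0.22 to 0.69 and by 0.25 to 0.54 on the log2 scale, and the groups overlapped. NPV was at 0.22 above SC by probe 1 (95% interval -0.29 to 0.73) and at 0.34 by probe 2 (-0.31 to 0.99). Number 2 went the other way in that comparison with both probes (-0.22 and -0.15), so NPV 2 was the NPV array with no excess of Sox9 over the SC array of the same number. Single arrays moved these values: NPV against SC was 0.12 without NPV 3 and 0.37 without NPV 2 by probe 1, and 0.12 without NPV 3 and 0.08 without SC 1 by probe 2. PV against SC by probe 2 was -0.27 without PV 1 and -0.69 without SC 1.

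Krt19 and Krt7 pair as type I and type II keratins in the duct lining, and both are absent from healthy adult hepatocytes. Krt19 had intensities of 62.8 to 89.9 before normalization, with detection p from 0.255 to 0.842. Its normalized levels were 4.44 to 4.68 in PV, 4.45 to 4.53 in NPV and 4.46 to 4.75 in SC. All of these lay below the lowest detected level of the array, and the regions overlapped. Krt7 had intensities of 67.9 to 108 and detection p from 0.0726 to 0.543, with levels of 4.65, 4.88 and 4.997 on PV arrays 1, 2 and 3 and of 4.55 to 4.79 on the NPV and SC arrays. The lowest of these p was that of PV 3. With 1 probe each and no array above background, a low transcript level and a weak probe cannot be told apart, and no fold is given.

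Krt23, which unlike these was detected on every array (detection p of 0.00107 or less), followed the order of Sox9. PV arrays 1, 2 and 3 read 6.93, 7.84 and 6.36, NPV arrays 7.63, 8.27 and 7.49, and SC arrays 7.39, 8.22 and 7.31. Number 2 was highest in each group and PV was lowest within each number. Over all arrays the groups overlapped, because PV 2 exceeded NPV 1 and NPV 3. The label number accounted for 62.1% of the sum of squares of Krt23 over the 9 arrays and the region for 32.6%, against 3.52% and 65.0% for Sox9 probe 1. Medians over all probes past the filter were 60.3% and 10.3%.

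PV differed from NPV in Krt23 by -0.75 (SE 0.41, 95% interval -1.68 to 0.17; limma adjusted p = 1.00), which is 1.69-fold, in 3 of 3 numbers (-0.71, -0.42 and -1.13). With the number as a block the SE was 0.15, the interval -1.10 to -0.40 and the unadjusted p = 0.000916, and the limma adjusted p was 0.144. Against SC, PV was at -0.60 (SE 0.41, and 0.15 with the block), again lower in 3 of 3 numbers (-0.46, -0.38 and -0.96). NPV and SC differed by 0.15 (95% interval -0.77 to 1.08), less than the spread within either group. NPV was higher in 3 of 3 numbers (0.24, 0.04 and 0.17), but the small mean difference turned negative when NPV 2 or SC 3 was left out. Without PV 3 the difference between PV and NPV was -0.41, and without PV 2 it was -1.14. The difference between PV and SC was -0.26 without PV 3, -0.31 without SC 2 and -0.99 without PV 2.

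Epcam, a homophilic adhesion molecule of simple epithelia, had intensities of 57.8 to 71.5 and detection p from 0.431 to 0.955 on the probe matched by accession. Its levels of 4.37 to 4.61 lay below every detected probe on all 9 arrays, scraped tissue included. Cldn7 seals the space between epithelial cells, and its probe sat at the edge of detection. PV arrays 1, 2 and 3 read 5.33, 4.73 and 5.31, NPV arrays 5.43, 5.29 and 4.92, and SC arrays 5.81, 5.54 and 4.76. Cldn7 was not detected on PV 2, NPV 3 and SC 3, and on the other arrays its detection p was 0.0107 to 0.0459. PV differed from NPV by -0.09 (95% interval -0.77 to 0.60) and from SC by -0.24 (-0.93 to 0.44), and NPV from SC by -0.16 (-0.84 to 0.53). The signs differed between label numbers in all 3 comparisons, and the size of a fold so close to background is drawn towards 1.

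Spp1, the secreted phosphoprotein osteopontin, varied more than the other members. PV arrays 1, 2 and 3 read 11.06, 11.06 and 8.86, NPV arrays 10.97, 9.95 and 10.11, and SC arrays 10.81, 11.03 and 10.20. PV held both the highest and the lowest array of the series, which lay 4.61-fold apart. The SD over the 9 arrays, 0.75, was at the 94.0th percentile of all probes past the filter. PV and NPV had nearly equal means (10.32 ± 1.27 and 10.35 ± 0.55, SD, n = 3), with differences of 0.08, 1.11 and -1.26 by number and a 95% interval of -1.34 to 1.30. SC had the highest mean (10.68 ± 0.43), at -0.35 for PV against SC and -0.33 for NPV against SC (SE 0.58 in both). Without PV 3 the difference between PV and NPV turned to 0.72 and that between PV and SC to 0.38. Without NPV 1 the first also turned, to 0.29, so neither direction held when single arrays were left out. The difference between NPV and SC stayed negative, at -0.65 without NPV 1 to -0.13 without NPV 2, and was also moved by over 1.5 times without NPV 3 (-0.22), SC 2 (-0.16) or SC 3 (-0.58).

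**Figure D2:**
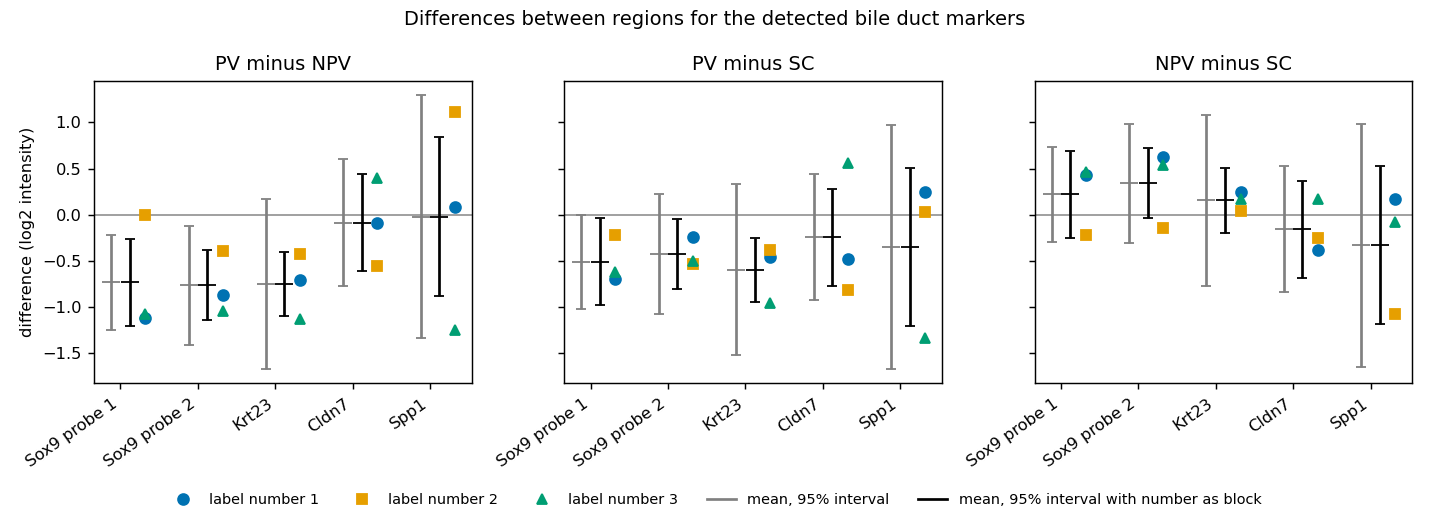
Difference between regions (log2 intensity, vertical axis) for the 5 detected bile duct marker probes. Coloured symbols give the difference within each label number, grey bars the mean with its 95% interval, and black bars the same with the label number as a block. Sox9 and Krt23 lie close to or below 0 in PV against NPV and below 0 in PV against SC, while Spp1 runs from -1.26 to 1.11 in PV against NPV.

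Read against all probes, these counts were as follows. Between PV and NPV, 0 of 5 member probes passed by limma where 0.0103% of all probes did, and 0 passed with the number as a block, where 0.329% did. At an unadjusted p under 0.05 there were 2 of the 5, both of Sox9, and 3 with the block, Krt23 being the third, beside 2.10% and 9.15% of all probes. The groups of 1 of the 5, Sox9 probe 2, did not overlap, where those of 5.79% of all probes did not. Of the 5, 2 were lower in PV in 3 of 3 numbers, as were 17.7% of all probes.

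Between PV and SC, 0 of 5 passed without the block, as did 0% of all probes, and 0 with it, where 0.0824% of all probes passed. The unadjusted limma p was under 0.05 for 1 of the 5 (Sox9 probe 1), and with the block for 3 (both Sox9 probes and Krt23), beside 1.12% and 6.19% of all probes. The groups of 0 of the 5 were free of overlap, against 3.68% of all probes, and 3 of the 5 were lower in 3 of 3 numbers, against 12.8%. Between NPV and SC, 0 of 5 passed and 0 had an unadjusted p under 0.05 in either fit, where 1.59% of all probes had one without the block and 6.74% with it. In both fits 0% of all probes passed, and 4.25% of all probes had groups that did not overlap, against 0 of the 5. Of the 5, 1 (Krt23) was higher in NPV in 3 of 3 numbers, against 13.3% of all probes, and 0 were lower, against 14.4%. The 3 comparisons share arrays, so their values are not independent of one another.

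Other genes of the bile duct could be measured only in part. Of 20 such genes 19 had a probe and 10 passed the filter. Of the 9 that had a probe but did not pass, 7 were detected on 0 arrays, among them Cftr, the chloride channel of the duct's apical membrane. In PV against NPV, 0 of the 10 rose and 0 fell, with a median of -0.02 beside 0.0014 for all genes. Limma's unadjusted p was under 0.05 for 0 of them, and for 1 when the block was used, beside 2.10% and 9.15% of all probes. Pkhd1, fibrocystin of the primary cilium, was at -0.40 (SE 0.19; -0.55, -0.40 and -0.25 by number). Its groups, alone among the 10 genes, did not overlap, where those of 5.79% of all probes did not. Elf3, an epithelial transcription factor, was at -0.31 (SE 0.21) and went both ways between numbers. Against SC, Elf3 in PV was at -0.37 (SE 0.21). Krt8 and Krt18, the keratins that ducts share with hepatocytes, were bright on all 9 arrays. They differed between PV and NPV by 0.36 (SE 0.14) and -0.08 (SE 0.20), with neither passing (1 at an unadjusted limma p under 0.05). The groups of Krt8 did not overlap either, with PV higher in each number (0.30, 0.44 and 0.33).

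Notch signalling between portal mesenchyme and progenitors directs duct formation, and Sox9 is among the genes it turns on. Of its 9 listed genes 8 were measured, 0 rose and 0 fell between PV and NPV (0 at an unadjusted p under 0.05 by limma in either fit), and the median was 0.06. Of all probes 2.10% had such a p, and 9.15% with the block. Notch1, a receptor, differed by 0.28 (SE 0.19) and Hey1, a target gene, by -0.25 (SE 0.23). Rbpj, the DNA-binding effector, was detected on 0 arrays with any of its 3 probes.

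Hepatocyte genes of the periportal zone had differences of the same sign as Sox9 and Krt23. All 12 that were measured had a lower mean in PV than in NPV (median -0.55; -0.66, -0.24 and -0.57 by number). By limma 0 passed in either fit, and 6 had an unadjusted p under 0.05 (12 with the block), beside 2.10% of all probes (9.15% with the block). Etnppl, which breaks down phosphoethanolamine, was at -0.90 (SE 0.21) and Cyp2f2, a cytochrome P450, at -0.56 (SE 0.15). The mean level of this list was 12.82 to 12.99 on the PV arrays, 13.26 to 13.57 on the NPV arrays and 13.20 to 13.29 on the SC arrays. In it too, number 2 had the smallest difference between PV and NPV, as in both Sox9 probes and Krt23. The part of these hepatocytes in the values of Sox9 and Krt23 was not tested. Pericentral genes went the other way in 10 of 11 measured (median 1.27, 1 rose and 0 fell, and 8 rose with the block). Cyp2e1 was the exception, at -0.09 (SE 0.13). Of all probes 0.0103% passed, and 0.329% with the block.

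Genes of other portal tract tissue had differences of other signs. Portal fibroblast and fibrous matrix genes, many of which are also active in the wall of the central vein, had a higher mean in PV than in NPV in 12 of 12 measured genes (median 0.72; 0.93, 1.01 and 0.08 by number). None of them rose or fell by the test in either fit, with 1 reaching an unadjusted limma p under 0.05 (7 when the block was used). Of all probes 2.10% did (9.15% with the block). Fbln2, a fibulin of elastic fibres, was at 1.07 (SE 0.40) and Lum, a collagen-binding proteoglycan, at 0.59 (SE 0.31). The rise was not uniform: Thy1 was at 0.10 (SE 0.30) and Entpd2 at 0.02 (SE 0.19). Lower in PV in number 3 were Thy1 (-0.14), Entpd2 (-0.34), Lum (-0.05), Col1a1 (-0.30), Dcn (-0.11) and Col1a2 (-0.0075). The other measured genes, Fbln2 (0.17) among them, were higher there. The mean level of the list was 6.35 to 8.50 in PV, 6.20 to 7.57 in NPV and 6.29 to 7.28 in SC, with the arrays numbered 1 highest in each group and those numbered 3 lowest. Gli1 was detected on 0 arrays. Artery and smooth muscle genes had a median of 0.25 (7 measured; 0.46, 0.05 and -0.04 by number), with 0 past the test and 0 at an unadjusted p under 0.05 by limma in either fit. Among them Gja5, a connexin of arterial endothelium, was at -0.32 (SE 0.26) and Acta2, smooth muscle actin, at 1.02 (SE 1.47).

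Cells that can share single members with the duct were measured too. Kupffer cell and macrophage genes, set beside Spp1, had differences between PV and NPV of -0.32, -0.31 and 0.66 by number (7 measured, median 0.02, 0 past the test, 0 at an unadjusted p under 0.05 by limma), where Spp1 had 0.08, 1.11 and -1.26. On PV 3, the array lowest in Spp1, Marco, a scavenger receptor of macrophages, was at 8.24 and on the other arrays at 5.26 to 6.51. The mean level of the list was 8.53 on PV 3 and ran from 7.49 (NPV 3) to 8.87 (NPV 1) on the other arrays. Within number 3, however, it was highest on PV 3, with SC 3 at 7.86. Each measured gene was higher on PV 3 than on NPV 3, by 0.45 (Timd4) to 2.98 (Marco), and than on SC 3. In numbers 1 and 2 the PV array had the lowest mean level (8.59 and 8.37). Timd4, a receptor for apoptotic cells, was at -0.15 (SE 0.28). Mesothelial cells of the liver capsule also make Krt19 and Krt7. Their 4 measured genes had a mean level of 6.35 on NPV 3, 6.04 on PV 1 and 5.95 on PV 2, and of 4.57 to 5.06 on the other 6 arrays, with 0 past the test between PV and NPV (median -0.02; 0.89, 0.95 and -1.73 by number; 0 at an unadjusted p under 0.05 by limma). For both lists, 2.10% of all probes had such a p between PV and NPV. Upk3b, a uroplakin, reached 6.94 on NPV 3, where Krt19 was at 4.45 with a detection p of 0.784, and Gpm6a, a membrane glycoprotein, reached 7.92 on PV 1, where Krt19 was at 4.67.

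**Figure D3:**
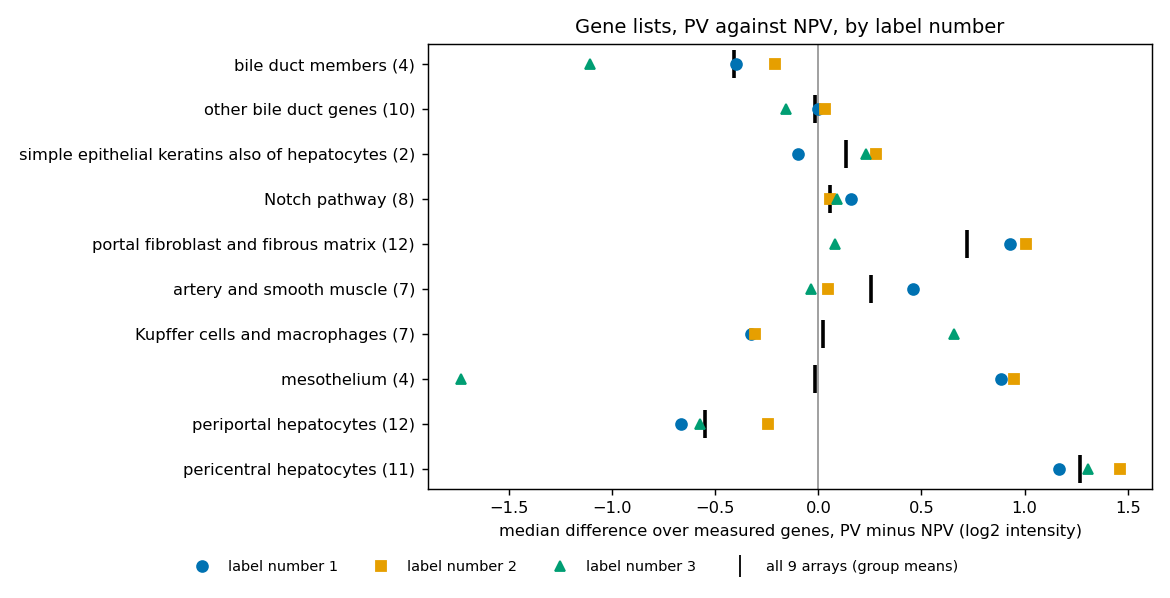
Median difference between PV and NPV (log2 intensity, horizontal axis) of each gene list, with the number of genes measured in brackets. Symbols give each label number and the black mark the difference of the group means. The medians of the 4 detected bile duct members and of the periportal hepatocyte genes lie below 0 in all 3 numbers. Those of fibrous matrix genes lie at 0.08 to 1.01 and those of mesothelial genes run from -1.73 to 0.95. Single members went both ways between numbers, as Spp1 (0.08, 1.11 and -1.26) and Cldn7 (-0.09, -0.56 and 0.40) did.

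In the comparisons with SC, 0 genes of these lists passed by limma without the block. The number at an unadjusted p under 0.05 was 3 for periportal and 5 for pericentral hepatocytes in PV against SC, 4 for pericentral hepatocytes in NPV against SC, and 0 for each of the other lists, the bile duct members with 1 (Sox9, PV against SC) left aside. Of all probes 1.12% reached it in PV against SC and 1.59% in NPV against SC. With the block 4 pericentral genes passed in PV against SC, and the unadjusted p was under 0.05 there for 6 of 12 fibrous matrix, 3 of 7 artery and smooth muscle, 1 of 4 mesothelial, 6 of 12 periportal and 8 of 11 pericentral genes and for 2 of the 4 members, where it was for 6.19% of all probes. In NPV against SC with the block it was under 0.05 for 1 periportal and 5 pericentral genes and for 0 of the other lists, where it was for 6.74% of all probes. The median of PV against SC was 0.83 for fibrous matrix, 0.20 for artery and smooth muscle, 0.12 for macrophages, 0.51 for mesothelium, 0.02 for other bile duct genes and for the Notch pathway, and -0.29 for periportal hepatocytes. For the 4 detected bile duct members, each by its brightest probe, it was -0.43, and -0.41 for PV against NPV.

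The detected members did not share 1 pattern over the arrays. Sox9 probe 1 and Krt23 correlated at r = 0.651 over the 9 arrays, and at 0.899 after the mean of each label number was subtracted. For Sox9 and Spp1 the values were 0.275 and 0.466, for Krt23 and Spp1 0.498 and 0.458, and for Krt23 and Cldn7 0.00031 and -0.086. These 9 points share regions and label numbers, so the values describe the arrays only.

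Among 10800 named genes, the 3 most like Sox9 by Pearson r over the 9 arrays were Cyp2f2 (0.940), Ak4, an adenylate kinase (0.919), and Gls2, the hepatic glutaminase (0.915), and with the label number subtracted these had r = 0.947, 0.957 and 0.930. Of them Cyp2f2 and Gls2 are in the periportal list. Those most like Krt23 were Hsd17b6, a steroid dehydrogenase (0.967), Uvrag, an autophagy protein (0.951), and Ippk, an inositol phosphate kinase, in that order, and with the label number subtracted these had r = 0.971, 0.973 and 0.918. Those most like Spp1 were Wdr45 (0.935), Garre1 (0.921) and Emilin1, an elastic fibre glycoprotein (0.907), and those most like Cldn7 were Mcee, an epimerase of propionate breakdown (0.932), Fbxw17 (0.926) and Ccni, a cyclin (0.924). No gene was named for more than 1 member. Choosing the highest of so many genes favours high values.

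**Figure D4:**
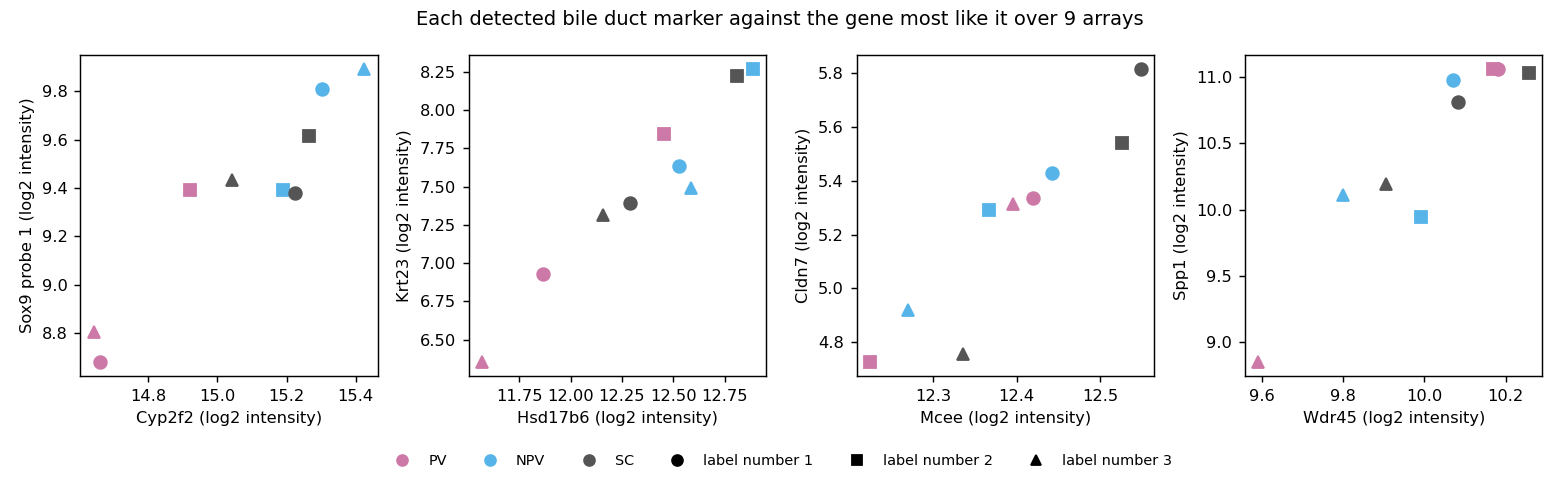
Level of each detected bile duct marker (vertical axes, log2 intensity) against that of the gene with the highest Pearson r to it (horizontal axes, log2 intensity) over 9 arrays, 1 point an array. Colours give the region and shapes the label number. PV 1 and PV 3 lie lowest in both Sox9 and Cyp2f2, and PV 3 lies lowest in Krt23 and in Spp1.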

How the data were processed

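The deposited scanner table gave, per the file headers, probe intensity values not yet normalized, beside each array's detection p-value. The submitters' processing notes name BeadStudio 3. The authors' own normalized intensity table, on a linear scale and by a method these sources do not state, served as an alternative. Arrays carried Cy3 alone, per the labels' protocols.

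Groups and label numbers came from the sample titles. Intensities were background-corrected and quantile-normalized with limma 3.58.1 in R 4.3.3 (neqc, offset 16, with the control distribution read from detection p-values) and put on the log2 scale. Folds of dim probes are drawn towards 1 by the offset. Each comparison was a contrast of group means in 1 limma model over 9 arrays (6 residual degrees of freedom, 4 with the block), 2-sided, with Benjamini-Hochberg adjustment over 19425 probes at a threshold of 0.05. Code was tested on simulated data. The numbers were taken to pair the arrays because every same-numbered pair correlated above 0.1, the criterion set for this. Pairs of numbers 1 and 2 from different groups also did (0.328 to 0.396), so this criterion does not tell those numbers apart. Symbols were updated through RefSeq GRCm38.p6 (29365 probes by accession, 3682 by symbol, 3272 by synonym, and 8962 left as the file names them). List genes were taken by their brightest probe past the filter. Every member probe was named. Of each other list up to 2 genes per comparison with the smallest p, and for each member the 3 genes most like it, were eligible, without RIKEN and LOC names. The undetected Cftr, Rbpj and Gli1 were named after their values were seen. So were Thy1, Entpd2, Col1a1 and Col1a2 of the fibrous matrix list and Cyp2e1 of the pericentral list. Glul served as the check of the labels. The members and lists were chosen with earlier results of these data known. Probe sequences and genome positions of the probes were not used here.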

Additional observations from a re-analysis of the deposited data

How the results depend on the processing

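Under 20 other settings per comparison 0 member probes were called in any comparison, the replicate number as a block (0 called) included. The differences of 10 of 15 member results kept their direction in every setting run, those of Sox9 among them (PV against NPV, probe 1 -0.95 to -0.36, probe 2 -0.89 to -0.40). Krt23 kept its direction in both comparisons with PV (-1.14 to -0.41 against NPV). With median scaling, which moved the median of all probes by 0.28 in PV against NPV, Cldn7 turned to 0.0021 and Spp1 to 0.35 there, the first below that shift and the second above it. Relative to the same shift Sox9 probe 1 (-0.36) and Krt23 (-0.41) were still lower in PV. In NPV against SC Krt23 turned to -0.013, but the median of all probes was -0.13 with this scaling, so Krt23 stayed above it. Without the 3 arrays numbered 3, with and without the block, Spp1 turned to 0.61 in PV against NPV and 0.14 in PV against SC. Leaving out 1 array at a time gave -0.24 to 0.11 for Cldn7 and -0.39 to 0.72 for Spp1 in PV against NPV, -0.72 to 0.38 for Spp1 in PV against SC, and -0.081 to 0.44 for Krt23 and -0.46 to 0.066 for Cldn7 in NPV against SC. The cause of these turns was not tested. All-probe calls between PV and NPV numbered 2, and 64 with the block, 45 with it as a random term, 11 with median scaling, 5 with normexp or the authors' table, 3 by gene, 32 without the arrays numbered 3 (55 with the block), 0 with those 2 groups alone, and 0 to 6 without single arrays. Between PV and SC they numbered 0, and 16 with the block, 7 with it as a random term, and 3 without the arrays numbered 3 (17 with the block). In the remaining settings of PV against SC, and in every setting of NPV against SC, they numbered 0. Where no probe at all was called, a count of 0 members says nothing about the members. At a detection p under 0.01, members detected per array fell from a mean of 4.67 to 3.67 in PV and SC and to 4 in NPV. The files give no slide or scan. Signals near background (Cldn7, Sox9 probe 2) limit what the arrays show.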
